A study of Mus musculus with 4 samples.

Results

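The genes described here encode the machinery of the DNA replication fork and of repair by homologous recombination. They were chosen by name: a probe set belonged to the group when its single gene symbol in the array annotation was identical to 1 of 43 listed symbols. The symbols were listed with earlier results of these data known, so comparisons with all genes describe the list and do not test it. Of the 43, 42 were among the 18193 genes named by such a probe set, and 41 were bright enough to be tested among 11942 genes. Chaf1a had no probe set under that rule and is not analysed here. Bard1, the partner of Brca1, was below the brightness limit, with a signal of 0.762 to 1.66 on the 4 arrays.

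The tissue was regenerating liver of BALB/c nu/nu mice, a strain without a functional thymus, profiled on 4 single-colour Affymetrix arrays. All mice had 23 injections of carbon tetrachloride, a liver toxin, at 0.25 ml/kg, then 1000000 human bone marrow mesenchymal stem cells by injection into the spleen, and partial hepatectomy on day 21, with liver collected 8 days later. The protocol also mentions albumin in phosphate-buffered saline over the last 7 days before the final toxin dose, without naming the animals that received it. The control group (EGFP, n = 2 arrays) received cells that expressed the fluorescent protein EGFP, and the other group (OGFRL1, n = 2 arrays) cells that expressed OGFRL1, so the toxin, the human cells and the surgery were common to both. The labels give no age, sex or promoter of the expression construct, and name no mouse behind an array. The p-values therefore measure only the spread between these arrays, which may be technical, and no sham-operated or untransplanted liver was analysed here.

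At a replication fork the CMG helicase, made of Cdc45, the MCM ring and the GINS complex, opens the duplex, and RPA coats the exposed single strand. Polymerase alpha with its primase lays down primers, the RFC clamp loader places the PCNA ring on them, and polymerases delta and epsilon extend the lagging and leading strands. Fen1, Dna2 and Lig1 turn the lagging-strand pieces into a continuous strand, while Brca1, Brca2 and the recombination factors repair broken forks. Most of these genes are transcribed as cells enter S phase under E2F factors and are quiet in resting hepatocytes, which re-enter the cycle after partial hepatectomy.

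Levels are MAS5 signal intensities, a linear brightness scale on which each array had been scaled as a whole, so they are compared between arrays for 1 probe set and never between genes. Fold changes are OGFRL1 minus EGFP on the log2(signal + 3.51) scale with the standard error (SE) of a limma fit to all tested genes, and a gene is called at an adjusted p under 0.05 (Benjamini-Hochberg over 11942 genes). Array medians lay between 11.6 and 12.5, and pairs of arrays correlated at 0.965 to 0.984 across the tested genes, which are not independent replicates. The ratio of 3′ to 5′ control probe sets, a measure of RNA integrity, was 0.73 to 0.79 for Gapdh and 1.57 to 1.94 for beta-actin, and the groups overlapped on both. Spike-in controls of bacterial and phage origin were lower on OGFRL1 arrays. The mean log2 difference was -0.43 over 4 Cre probe sets and -0.32 over 14 BioB, BioC and BioD probe sets. How this difference bears on the fork genes was not tested. Ogfrl1 itself was at 136 and 119 in EGFP livers and 124 and 122 in OGFRL1 livers (-0.05 ± 0.16, adjusted p = 0.92). That probe set was designed on the mouse transcript, and whether it also reads the human one was not tested.

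Fork and repair genes were higher in OGFRL1 livers. The median log2 fold change over the 41 tested members was 0.80, beside 0.04 over all genes tested, and 39 of 41 were above 0 (55.6% of all genes were); 39 were also above 0 after quantile normalization, and 40 after scaling to equal medians, where Pola2 changed sign. In 37 members both OGFRL1 arrays exceeded both EGFP arrays, an arrangement found in 27.0% of all genes tested. After adjustment over all genes, 3 members rose past the threshold (0.36% of all genes did), namely Hells, Prim1 and Brca1, and 0 fell (0.151% of all genes). Without adjustment, 32 members were higher at a limma p under 0.05, against 9.01% of all genes, and 0 were lower, against 6.28%. An adjusted p under 0.10 was reached by 12 members, against 1.49% of all genes, all 12 higher. A log2 fold change of at least 1 was seen in 12 members, against 2.41% of all genes.

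In whole tissue a higher signal can mean more cells that carry a transcript or more transcript per cell, and these cannot be told apart here. The 3 calls depended on single arrays and on the processing. Without OGFRL1 array 1 or OGFRL1 array 2, 0 members were called, while 17 were without EGFP array 1 and 15 without EGFP array 2, and quantile normalization called 0. Over all genes the limma fit called 43 higher and 18 lower, or 70.5% higher, but quantile normalization called 1 higher and 3 lower, or 25% higher. The median over the members moved less, from 0.70 to 0.87 when each array in turn was left out and after quantile normalization or scaling to equal medians.

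**Figure D1:**
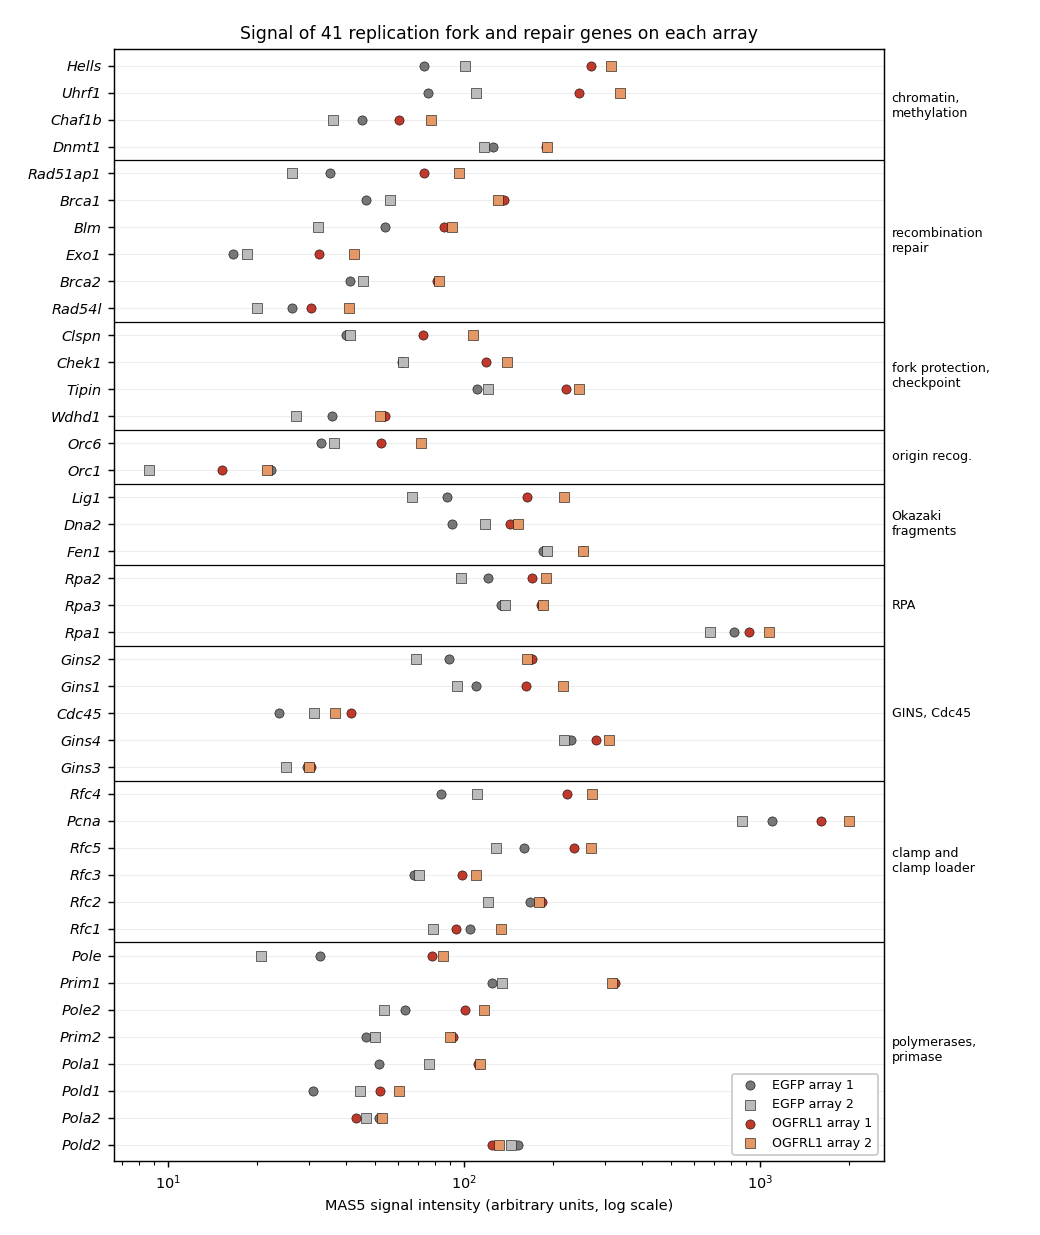
MAS5 signal (x axis, arbitrary units, log scale) of the 41 tested genes on each of the 4 arrays, grouped by role; grey symbols are EGFP arrays, red and orange symbols OGFRL1 arrays, circles replicate 1 and squares replicate 2. In 37 genes both OGFRL1 symbols lie to the right of both EGFP symbols, and Pola2, Pold2, Rfc1 and Orc1 are the exceptions.

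Some promoters of these genes carry a sequence word of the kind through which E2F factors are known to act. The following 7 are shown because their genes include the 3 called members and run from the largest fold change (Hells, 1.72) to a value near 0 (Gins3, 0.13). Sequences are from RefSeq (GRCm38.p6), the 200 bases before the annotated start, 5′ to 3′ on the gene's strand. Capitals mark an E2F word in the first 5 (TTTCCCGC, TTTGGCGC or TTTCGCGC, or its reverse complement) and a CCAAT word, known as the binding word of NF-Y, in the last 2.
Hells (chr19:38930790-38930989, plus strand): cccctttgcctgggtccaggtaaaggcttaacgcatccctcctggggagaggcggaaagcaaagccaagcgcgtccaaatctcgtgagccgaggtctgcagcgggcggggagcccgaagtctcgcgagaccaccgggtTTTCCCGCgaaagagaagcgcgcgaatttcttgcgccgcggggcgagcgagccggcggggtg
Uhrf1 (chr17:56304113-56304312, plus strand): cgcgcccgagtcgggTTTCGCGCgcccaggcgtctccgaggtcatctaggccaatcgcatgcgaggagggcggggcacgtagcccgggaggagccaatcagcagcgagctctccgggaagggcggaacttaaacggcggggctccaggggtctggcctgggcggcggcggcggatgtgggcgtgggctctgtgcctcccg
Pola1 (chrX:93632156-93632355, minus strand): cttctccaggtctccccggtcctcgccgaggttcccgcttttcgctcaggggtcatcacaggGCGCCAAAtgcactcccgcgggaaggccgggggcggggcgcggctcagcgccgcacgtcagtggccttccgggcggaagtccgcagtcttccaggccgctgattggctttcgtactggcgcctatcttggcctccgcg
Brca2 (chr5:150522421-150522620, plus strand): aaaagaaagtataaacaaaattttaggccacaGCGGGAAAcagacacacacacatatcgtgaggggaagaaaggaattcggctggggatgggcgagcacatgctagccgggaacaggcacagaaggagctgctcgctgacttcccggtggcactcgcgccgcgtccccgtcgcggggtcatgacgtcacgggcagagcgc
Gins3 (chr8:95633359-95633558, plus strand): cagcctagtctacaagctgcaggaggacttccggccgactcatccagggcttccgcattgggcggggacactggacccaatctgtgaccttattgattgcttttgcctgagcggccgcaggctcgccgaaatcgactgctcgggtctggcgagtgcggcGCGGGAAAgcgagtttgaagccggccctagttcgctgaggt
Prim1 (chr10:128015015-128015214, plus strand): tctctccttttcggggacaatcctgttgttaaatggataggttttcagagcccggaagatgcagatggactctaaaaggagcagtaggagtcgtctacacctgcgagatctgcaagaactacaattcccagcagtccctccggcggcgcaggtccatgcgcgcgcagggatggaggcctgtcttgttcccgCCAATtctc
Brca1 (chr11:101551956-101552155, minus strand): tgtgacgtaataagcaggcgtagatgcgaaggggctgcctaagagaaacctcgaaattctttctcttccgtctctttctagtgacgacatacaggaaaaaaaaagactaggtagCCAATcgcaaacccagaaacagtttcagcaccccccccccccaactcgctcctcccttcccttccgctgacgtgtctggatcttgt

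The word begins 62 bases before the start of Hells, 185 before the downstream one of the listed starts of Uhrf1, 138 before that of Pola1, 168 before that of Brca2 and 41 before that of Gins3. The CCAAT word begins 9 bases before the start of Prim1 and 86 before that of Brca1. Where a gene had several listed starts, the one with the most E2F words was printed. In the printed windows with a marked E2F word, CCAAT words were left in lower case. They begin at -150 and -107 from the start of Uhrf1, at -37 from that of Pola1, and at -144 and -124 from that of Gins3. An upstream start of Uhrf1 also had CCAAT words, but no E2F word in its window. Across the whole 300-base windows of the table (250 bases before a start and 50 after it), 35 of the 43 members were matched. Any of 4 E2F words (TTTCCCGC, TTTGGCGC, TTTCGCGC and TTTGCCGC, both strands) occurred for 13 of 35 members, or 37.1%, against 4.61% of 9671 tested genes with a promoter. Counted by promoter, it was 30.2% of 43 member promoters against 2.26% of all 32851 promoters. TTTCCCGC and TTTCGCGC were each held by 6 members, TTTGGCGC by 3 and TTTGCCGC by 0. CCAAT was found for 21 of 35 members (60.0%, against 42.5% of tested genes) and shared 0 bases with an E2F word. By promoter the shares were 55.8% of member promoters and 37.4% of all promoters. The word TTTGAA, part of the CHR element of mitotic genes, was found for 6 members (17.1%, against 14.5% of tested genes). By promoter it was 14.0% of member promoters against 17.9% of all promoters. The 12 tested members with an E2F word had a median log2 fold change of 0.83 (0.13 to 1.72) and the 21 without one a median of 0.71 (-0.21 to 1.37), so the ranges overlapped. A match is a description of letters and not of a bound site.

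Among polymerases and primase, 6 of 8 genes were above 0 and 5 had an unadjusted p under 0.05, with a median of 0.83. The shares of all genes tested, for this and the following roles, were 55.6% above 0 and 9.01% higher at that limma p. Both OGFRL1 arrays exceeded both EGFP arrays in 27.0% of all genes. Prim1, the catalytic primase subunit that makes the RNA primer, rose from 124 and 135 on the EGFP arrays to 325 and 317 on the OGFRL1 arrays (1.29 ± 0.14, adjusted p = 0.0405). On this probe set the replicates were close together and the groups far apart. A dimmer probe set of Prim1 also had separate groups but was not called. It read 121 and 68.0 in EGFP livers and 163 and 215 in OGFRL1 livers. The fold change there was 1.02 ± 0.29 (adjusted p = 0.195 in a limma fit of all probe sets). Averaged over its probe sets, Prim1 was at 1.15 and not called. Prim2, the large primase subunit, was at 46.9 and 50.2 in EGFP livers and 91.8 and 89.8 in OGFRL1 livers (0.86 ± 0.18, adjusted p = 0.1). Pola1, the catalytic subunit of polymerase alpha, was at 51.8 and 76.3 in EGFP livers and 112 and 113 in OGFRL1 livers (0.80 ± 0.22, adjusted p = 0.171). The accessory subunit of the same complex, Pola2, was at 51.9 and 46.7 in EGFP livers and 43.4 and 52.9 in OGFRL1 livers (-0.04 ± 0.22, adjusted p = 0.96), so its groups overlapped while those of the other 3 subunits did not. The difference of Pola2 from its partners was not tested, and Pola2 was at 0.04 without EGFP array 1 and 0.10 without OGFRL1 array 1.

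Polymerase epsilon, the leading-strand enzyme, had the largest fold change of this role. Pole, its catalytic subunit, was at 32.7 and 20.7 in EGFP livers and 78.3 and 84.8 in OGFRL1 livers, 3.05 times higher in mean signal (1.52 ± 0.26, adjusted p = 0.0684). Pole2, its second subunit, was at 63.4 and 53.7 in EGFP livers and 101 and 117 in OGFRL1 livers (0.86 ± 0.19, adjusted p = 0.111). Both groups of arrays were separate for each of them, though neither gene passed the threshold. For polymerase delta the values were smaller. Pold1, the catalytic subunit, was at 30.8 and 44.5 in EGFP livers and 52.3 and 60.3 in OGFRL1 livers (0.55 ± 0.25), and Pold2, its accessory subunit, at 153 and 144 in EGFP livers and 124 and 131 in OGFRL1 livers (-0.21 ± 0.15, adjusted p = 0.576). Without EGFP array 1, Pold1 was at 0.31. Pold2 was the 1 member with both OGFRL1 arrays below both EGFP arrays.

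Pcna, the sliding clamp that tethers the polymerases, had a signal of 1101 and 872 in EGFP livers and 1616 and 2004 in OGFRL1 livers (0.87 ± 0.18, adjusted p = 0.0963). Among the clamp loader genes Rfc4, a small subunit, came nearest to the threshold with 84 and 110.5 in EGFP livers and 223.6 and 271 in OGFRL1 livers (1.32 ± 0.20, adjusted p = 0.0539). Rfc5 was at 159.6 and 129 in EGFP livers and 236 and 268.5 in OGFRL1 livers (0.80 ± 0.17) and Rfc3 at 68.0 and 70.4 in EGFP livers and 98.6 and 110.0 in OGFRL1 livers (0.57 ± 0.17). These 4 genes had separate groups. Rfc2, whose groups were also separate, was at 167.5 and 121 in EGFP livers and 184 and 179 in OGFRL1 livers (0.34 ± 0.19). Rfc1, the large subunit, was at 105 and 78.8 in EGFP livers and 94.2 and 133 in OGFRL1 livers (0.29 ± 0.24, adjusted p = 0.623), with OGFRL1 array 1 inside the EGFP range. Both rested on single arrays: Rfc2 was at 0.11 without EGFP array 2 and 0.57 without EGFP array 1. Rfc1 was at 0.05 without OGFRL1 array 2, 0.54 without OGFRL1 array 1, 0.09 without EGFP array 2 and 0.49 without EGFP array 1. The 6 genes together had a median of 0.68, and 4 had an unadjusted p under 0.05.

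The GINS genes and Cdc45, the helicase cofactors, were all above 0 with separate groups, with a median of 0.47 and 3 of 5 at an unadjusted p under 0.05. Gins2 was highest in fold change at 89.1 and 69.0 in EGFP livers and 170.3 and 163 in OGFRL1 livers (1.05 ± 0.18, adjusted p = 0.0687). Gins1 was at 110.3 and 94.8 in EGFP livers and 162 and 216 in OGFRL1 livers (0.85 ± 0.20) and Gins4 at 230.4 and 219 in EGFP livers and 280.3 and 309 in OGFRL1 livers (0.38 ± 0.14). Gins3 was nearly level, at 29.5 and 25.1 in EGFP livers and 30.5 and 30 in OGFRL1 livers (0.13 ± 0.25, adjusted p = 0.844), and its promoter holds the E2F word printed above. Cdc45, which joins GINS to the MCM ring, was at 23.8 and 31.2 in EGFP livers and 41.5 and 36.8 in OGFRL1 livers (0.47 ± 0.25). Without EGFP array 1, Cdc45 was at 0.29 and Gins3 at 0.24, and without EGFP array 2 Gins3 was at 0.03. The 4 GINS proteins form 1 complex, and the fold changes of their genes ranged from 0.13 to 1.05 with SEs of 0.14 to 0.25; differences between them were not tested.

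RPA, the heterotrimer that protects single-stranded DNA, had 3 of 3 genes at an unadjusted p under 0.05 with a median of 0.43. Its large subunit Rpa1 was at 821 and 679.8 in EGFP livers and 923 and 1072.5 in OGFRL1 livers (0.41 ± 0.16, adjusted p = 0.286), Rpa2 at 120.5 and 97.9 in EGFP livers and 169.8 and 190.2 in OGFRL1 livers (0.71 ± 0.18) and Rpa3 at 133 and 138 in EGFP livers and 183 and 186 in OGFRL1 livers (0.43 ± 0.15). The EGFP and OGFRL1 arrays did not overlap for any of the 3. Of the enzymes that finish lagging-strand fragments, Lig1, the replicative DNA ligase, was at 88.0 and 66.8 in EGFP livers and 164 and 218 in OGFRL1 livers (1.26 ± 0.22, adjusted p = 0.0684). The flap nuclease Fen1 was at 185 and 191 in EGFP livers and 253 and 253 in OGFRL1 livers (0.42 ± 0.14, adjusted p = 0.225) and the helicase-nuclease Dna2 at 91.2 and 118 in EGFP livers and 143 and 153 in OGFRL1 livers (0.50 ± 0.18). All 3 had separate groups, and Dna2 was at 0.32 without EGFP array 1.

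Orc6, a subunit of the origin recognition complex, was at 33.0 and 36.3 in EGFP livers and 52.5 and 71.9 in OGFRL1 livers (0.77 ± 0.24, adjusted p = 0.205). Orc1, the subunit that is known to cycle in abundance, was dim at 22.4 and 8.67 in EGFP livers and 15.2 and 21.7 in OGFRL1 livers (0.29 ± 0.44, adjusted p = 0.808). Its EGFP arrays differed more than its groups did, and without EGFP array 2 the fold change was -0.25. A dimmer probe set of Orc1 had separate groups, at 9.67 and 14.9 in EGFP livers and 19.2 and 19.3 in OGFRL1 livers. Its fold change was 0.55 ± 0.33 in a limma fit of all probe sets. The genes that stabilise forks and signal their stalling had a median of 1.00, with 4 of 4 at an unadjusted p under 0.05. Tipin, the partner of Timeless in the fork protection complex, was at 111 and 121 in EGFP livers and 222 and 246 in OGFRL1 livers (0.99 ± 0.15, adjusted p = 0.0554). Chek1, the checkpoint kinase, was at 61.8 and 62.4 in EGFP livers and 119 and 139.6 in OGFRL1 livers (1.02 ± 0.18, adjusted p = 0.0684), and Clspn, the adaptor claspin through which it is activated, at 40.1 and 41.2 in EGFP livers and 72.8 and 107 in OGFRL1 livers (1.06 ± 0.24, adjusted p = 0.112). Another probe set of Clspn, below the brightness limit and not tested, went the other way. It read 16.2 and 14.3 in EGFP livers and 7.61 and 4.24 in OGFRL1 livers. Wdhd1, which links the helicase to polymerase alpha, was at 35.8 and 27.1 in EGFP livers and 54.1 and 52.0 in OGFRL1 livers (0.71 ± 0.23).

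Recombination repair genes were above 0 in 6 of 6 tested cases, beside 55.6% of all genes, with a median of 0.99. Groups were separate upwards in all 6, against 27.0% of all genes. Of the 6, 5 were higher at an unadjusted limma p under 0.05, against 9.01% of all genes. Brca1, which directs broken ends to homologous recombination, rose from 46.6 and 56.3 on EGFP arrays to 137 and 130.1 on OGFRL1 arrays (1.32 ± 0.18, adjusted p = 0.0498). Its OGFRL1 values were both far above the EGFP values, while the adjusted p lay just under the threshold. Its 4 probe sets, of which 2 were below the brightness limit, averaged a fold change of 0.75 that was not called. Brca1 also lost its call with a floor in place of the pseudocount, where Hells and Prim1 were the 2 members called. Brca2, a mediator of homologous recombination, was at 41.3 and 45.6 in EGFP livers and 81.4 and 82.5 in OGFRL1 livers (0.87 ± 0.19, adjusted p = 0.107). Rad51ap1, which promotes homologous recombination, was at 35.4 and 26.2 in EGFP livers and 73.4 and 96.2 in OGFRL1 livers (1.37 ± 0.25, adjusted p = 0.072). Another of its probe sets was called: it read 18.8 and 17.7 in EGFP livers and 92.8 and 99.0 in OGFRL1 livers (2.19 ± 0.21, adjusted p = 0.0347 in a limma fit of all probe sets). The helicase Blm was at 54.2 and 32.2 in EGFP livers and 85.7 and 91.2 in OGFRL1 livers (1.02 ± 0.27) and the resection nuclease Exo1 at 16.6 and 18.5 in EGFP livers and 32.4 and 42.7 in OGFRL1 livers (0.96 ± 0.27). Rad54l, a motor protein of strand exchange, had the smallest value of the role at 26.3 and 20.0 in EGFP livers and 30.4 and 40.8 in OGFRL1 livers (0.55 ± 0.28, adjusted p = 0.423). Without EGFP array 2 Blm was at 0.67, and without OGFRL1 array 2 Rad54l was at 0.35.

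Genes that rebuild chromatin and DNA methylation behind the fork had a median of 1.17, with 4 of 4 at an unadjusted p under 0.05 and separate groups. Hells, a chromatin remodeller needed for DNA methylation, had the largest fold change of all members and rose from 73.2 and 100.8 on EGFP arrays to 268 and 315 on OGFRL1 arrays (1.72 ± 0.20, adjusted p = 0.0433). Uhrf1, which recognises hemimethylated DNA and recruits Dnmt1, was at 76.0 and 110.3 in EGFP livers and 246 and 338.6 in OGFRL1 livers (1.62 ± 0.24, adjusted p = 0.0539). Its mean signal was 3.14 times higher in OGFRL1 livers. Dnmt1, the maintenance methyltransferase, was at 125 and 117 in EGFP livers and 189 and 191 in OGFRL1 livers (0.64 ± 0.15, adjusted p = 0.124). Chaf1b, a subunit of the histone chaperone CAF-1, was at 45.3 and 36.2 in EGFP livers and 60.5 and 77.8 in OGFRL1 livers (0.71 ± 0.23). Averaged with its dimmer probe sets, Hells was at 0.92 and not called.

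**Figure D2:**
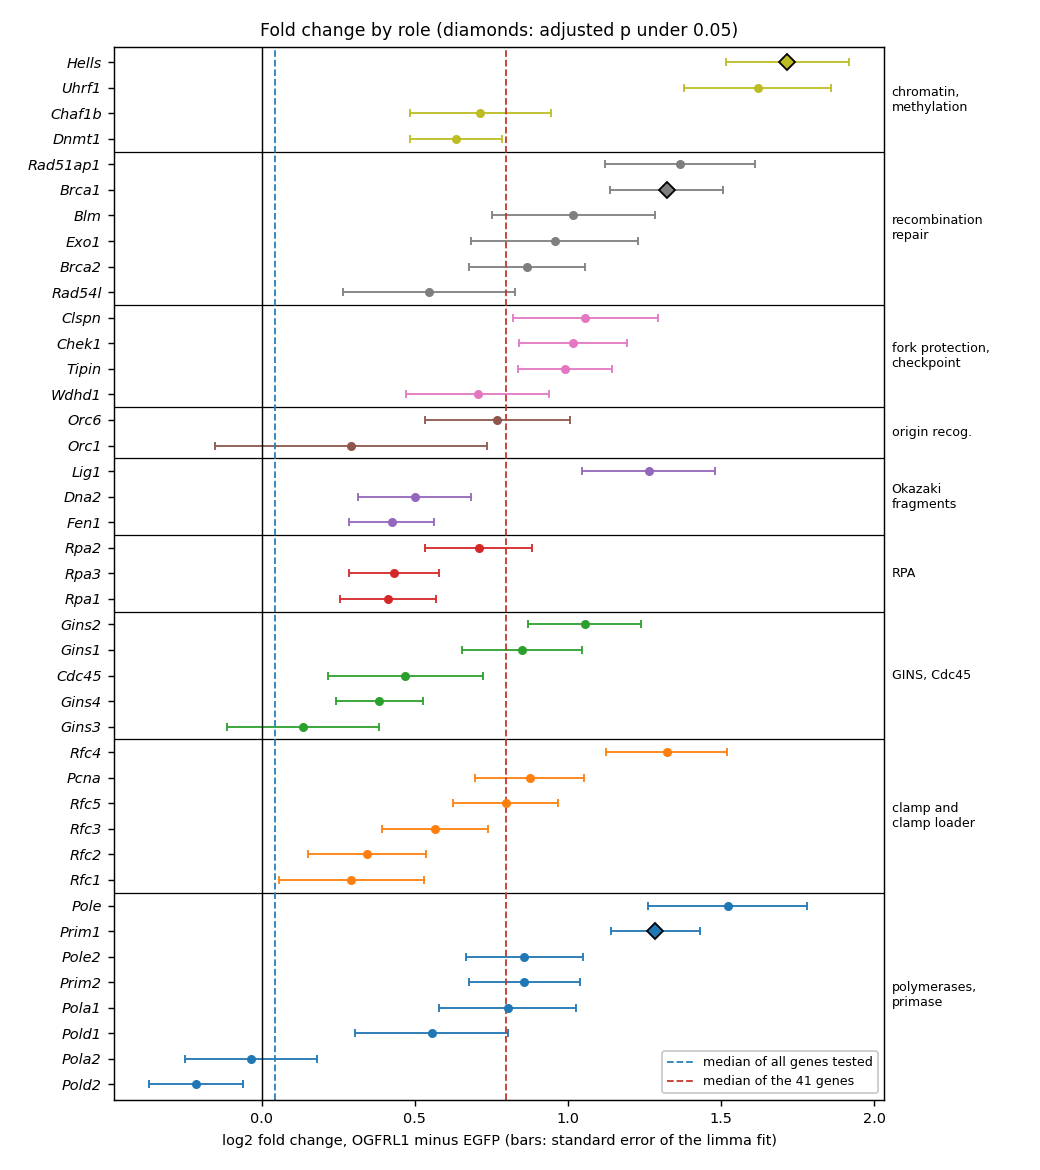
Log2 fold change (x axis, OGFRL1 minus EGFP) of the 41 tested genes by role, with bars for the standard error of the limma fit and diamonds for the 3 genes with an adjusted p under 0.05. Only Pold2 and Pola2 lie below 0 (Pola2 at 0.01 after scaling to equal medians), and the dashed lines mark the medians of all genes tested (0.04) and of the 41 genes (0.80).

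The roles were set side by side. Polymerases and primase had a median of 0.83, the clamp and its loader 0.68, GINS with Cdc45 0.47 and recombination repair 0.99. The order was not stable: as means over all probe sets of a gene the same medians were 0.53, 0.83, 0.61 and 0.81. Relative to the mean of the EGFP arrays, polymerases averaged 0.65 and 0.75 on OGFRL1 arrays 1 and 2 in log2 units, the clamp and loader 0.58 and 0.81, GINS with Cdc45 0.55 and 0.61, and repair genes 0.92 and 1.11. On this scale the 2 EGFP arrays lay within 0.09 of their mean for each of these 4 roles. OGFRL1 array 2 was above OGFRL1 array 1 in 33 of 41 members (median difference 0.16), while EGFP array 2 was above EGFP array 1 in 19 of 41. Over all 11942 genes tested, the same counts were 6420 (median difference 0.02) for OGFRL1 and 5658 for EGFP. No test between roles was made.

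The array measured the 42 genes by 88 probe sets, of which 68 passed the brightness limit. Of these 68, 64 were above 0 (55.0% of all probe sets were) and 60 had separate groups in the same direction (25.9% of the 20238 probe sets tested did). A limma fit of all probe sets called 3 of them higher (0.252% of all probe sets) and 0 lower (0.084% of all probe sets), and these belong to Hells, Prim1 and Rad51ap1. Among 21 genes with several bright probe sets, 19 had all of them above 0, and in 8 the probe sets differed by over 0.5 on the log2 scale. The exceptions in sign were Exo1 and Rfc1. The dimmer probe set of Exo1 read 10.6 and 18.8 in EGFP livers and 11.6 and 12.7 in OGFRL1 livers (-0.18 ± 0.37). A dim one of Rfc1 was at 30.7 and 17.3 in EGFP livers and 24.3 and 19.9 in OGFRL1 livers (-0.06 ± 0.33). Another Rfc1 probe set had separate groups, at 66.7 and 82.0 in EGFP livers and 91.2 and 108 in OGFRL1 livers (0.41 ± 0.20). Dnmt1 ranged from 0.64 to 1.74, the highest value coming from its dimmest probe set, which read 14.1 and 19.8 in EGFP livers and 59.3 and 69.4 in OGFRL1 livers. For Rfc3 and Fen1 the brighter probe set had the smaller fold change (0.57 against 1.17 and 0.42 against 0.95).

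**Figure D3:**
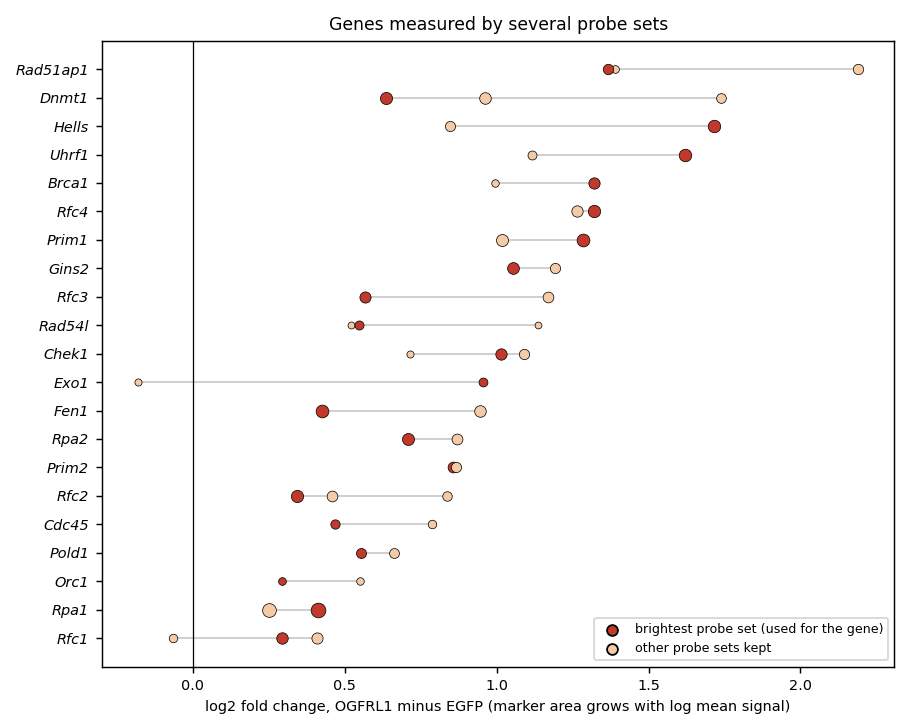
Log2 fold change (x axis, OGFRL1 minus EGFP) of each bright probe set of the 21 genes with several, dark red for the brightest one and pale for the others, with marker area growing with the log of mean signal. Probe sets of Rfc1 and Exo1 fall on both sides of 0, and the other 19 genes lie wholly above it, as they do after quantile normalization or median scaling.

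Other genes of the fork, listed by function, were also mostly higher. Of 38 tested, 33 were above 0, beside 55.6% of all genes, with a median of 0.67. After quantile normalization 33 were above 0, and after median scaling 34. Past the threshold 6 rose (0.36% of all genes did) and 0 fell (0.151% of all genes), against 0 and 5 higher under those scalings. The 6 include the MCM helicase subunits Mcm6 (1.70 ± 0.18, adjusted p = 0.0405) and Mcm7 (1.10 ± 0.13, adjusted p = 0.0433), the kinase activator Dbf4 (1.15 ± 0.15, adjusted p = 0.0456) and the licensing factor Cdt1 (1.10 ± 0.14, adjusted p = 0.0456). Other genes of recombination and of the Fanconi pathway had a median of 0.34, with 30 of 37 above 0 (27 after quantile normalization). The share above 0 over all genes was 55.6%. Of these 37, 0 passed the threshold. At an unadjusted limma p under 0.05, 6 were higher and 0 lower, beside 9.01% and 6.28% of all genes. The largest in moderated t were the end-processing nuclease Mre11a (1.15 ± 0.23, adjusted p = 0.0889), Rad54b (1.36 ± 0.30, adjusted p = 0.112), the checkpoint kinase Atr (0.56 ± 0.15, adjusted p = 0.17) and Fanca (0.82 ± 0.23, adjusted p = 0.178). For excision, end-joining and mismatch repair genes the median was 0.14 with 20 of 30 above 0, or 66.7% beside 55.6% of all genes (16 of 30 after quantile normalization). In that list 0 passed the limma threshold in either direction, with 6 higher and 0 lower at an unadjusted p under 0.05, beside 9.01% and 6.28% of all genes. The uracil glycosylase Ung (1.28 ± 0.25, adjusted p = 0.0887) and the mismatch sensor Msh6 (0.88 ± 0.20, adjusted p = 0.114) led that list, followed by Ercc1 (0.78 ± 0.20) and Ddb1 (0.43 ± 0.13). The medians of the lists were not compared by a test.

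**Figure D4:**
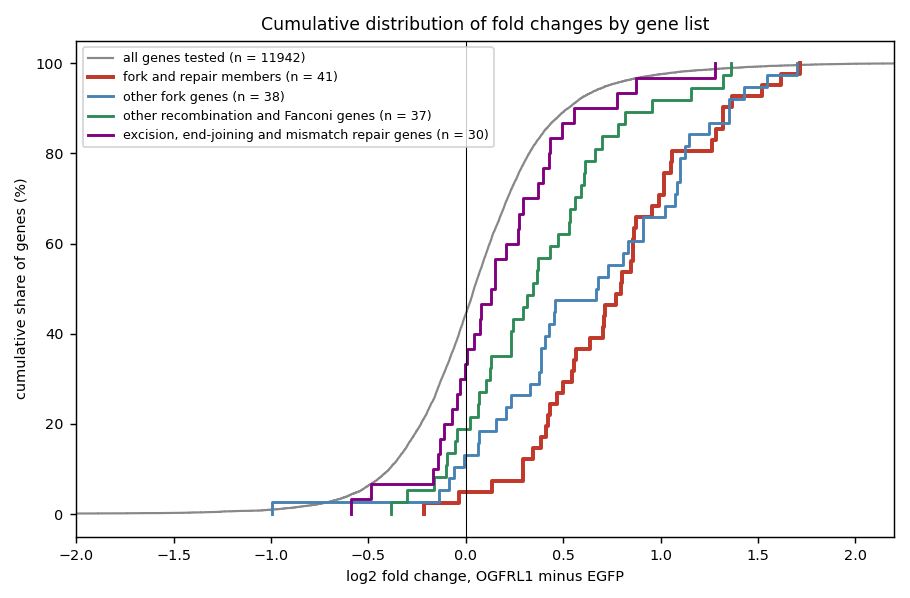
Cumulative share of genes (y axis, percent) against log2 fold change (x axis, OGFRL1 minus EGFP) for all 11942 genes tested, the 41 fork and repair genes and the 3 other lists; the x axis leaves out the outermost of all genes, which reach from -3.95 to 3.94. The median is 0.80 for the 41 genes, 0.67 for other fork genes, 0.34 for other recombination and Fanconi genes, 0.14 for the remaining repair genes and 0.04 for all genes.

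Markers of cell types were set beside these values. Mki67, a protein of cycling cells, was at 158 and 75.7 in EGFP livers and 355 and 447 in OGFRL1 livers (1.83 ± 0.33, adjusted p = 0.0728), and its groups were separate as in most fork genes. Hepatocyte markers identified the tissue: the summed signal of 9 matched of 10 was 68007 to 93314 in EGFP livers and 51782 to 56632 in OGFRL1 livers, none of them near 0, and 8 of 9 had both OGFRL1 arrays below both EGFP arrays, against 20.5% of all genes tested (5 of 9 were below 0 after quantile normalization). Alb was at 16107 and 9313 in EGFP livers and 7041 and 7930.4 in OGFRL1 livers (-0.71 ± 0.26, adjusted p = 0.271), and Cyp2e1 at -0.79 ± 0.15 and Hnf4a at -0.55 ± 0.15 had the largest moderated t. The remaining marker, Ass1, was dim and had separate groups upwards. It was at 33.4 and 22.1 in EGFP livers and 55.5 and 39.7 in OGFRL1 livers (0.72 ± 0.29, limma adjusted p = 0.318). Most stellate cell and myofibroblast markers were higher alongside the fork genes: 8 of 10 had separate groups upwards, against 27.0% of all genes tested. At an unadjusted limma p under 0.05, 6 were higher (9.01% of all genes), and 0 were called. The other 2, Rgs5 (-0.40 ± 0.17) and Lrat (-0.08 ± 0.17), had both OGFRL1 arrays below both EGFP arrays. The summed signal of the 10 was 3391 to 3429 in EGFP and 4404 to 5843 in OGFRL1 livers. Col1a1 (2.0 ± 0.28, adjusted p = 0.0503), Acta2 (1.15 ± 0.20, adjusted p = 0.0684), Pdgfrb (0.99 ± 0.20) and Tagln (1.37 ± 0.28) led the list. The part of hepatocytes and of these cells in the fork signal was not tested.

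For markers of other resident or recruited cells the summed signals of the groups overlapped. The exception was the sum of the T cell markers, which was dim and lower in OGFRL1 livers. Kupffer cell and macrophage markers (10 of 11 matched) summed to 5249 and 11770 in EGFP livers and 6149 and 10315 in OGFRL1 livers. In 0 of 10 did both OGFRL1 arrays exceed both EGFP arrays, against 27.0% of all genes tested. Sinusoidal endothelial markers (9 of 9) summed to 2463 to 2482 against 2192 to 2493, and cholangiocyte markers (6 of 8, with Cftr near 0) to 118 to 133 against 128 to 132. Erythroid precursor markers (6 of 10, of which 3 were below the brightness limit) summed to 812 to 875 against 798 to 821. The 3 tested went in both directions. Alas2, the haem synthesis enzyme of red cell precursors, was at -1.45 ± 0.24, Epor at -0.28 ± 0.25 and Tfrc at 0.46 ± 0.14. Neutrophil markers (6 of 8, Camp near 0) summed to 231 to 667 against 301 to 447, and B cell markers (6 of 8, Cd79a near 0) to 263 to 638 against 330 to 359. T cell markers (6 of 8, of which 4 were below the brightness limit) summed to 63.4 to 74.0 against 39.4 to 54.0. Of the 2 T cell markers tested, 0 had separate groups (27.0% of all genes had them upwards and 20.5% downwards). NK cell markers (7 of 8) summed to 74.5 to 149 against 64.6 to 101.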

How the data were processed

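RNA of 4 liver samples was hybridised as biotin-labelled cRNA made from 100 ng of total RNA, per the labels' protocols. The authors deposited 1 linear signal intensity for each probe set, computed with MAS5 per the submitters' processing notes. Its version and detection calls are not given in the sources used here. The 2% trimmed mean of each array was 100.0, so arrays had been scaled as a whole, which leaves the shape of the distributions free. Of 45101 probe sets, 34945 had 1 gene symbol, 932 several and 9160 none, and 64 were controls. Only probe sets with 1 symbol were used, each gene by its brightest, kept at a mean signal of at least 11.6 (the median over probe sets). After log2(signal + 3.51), the pseudocount being the 25th percentile, limma 3.58.1 in R 4.3.3 (eBayes with intensity trend, 2-sided, Benjamini-Hochberg, 2 residual and 4.48 prior degrees of freedom) compared the groups. On 5 simulated sets of 11942 genes for OGFRL1 against EGFP it called 17.2% of genes with a log2 change of 1 and 71.2% of those with 2, and 26 unchanged genes in all. Precision is limited by having only 2 arrays a group. Tables were made in Python 3.11.15 with pandas 2.3.3. The members and gene lists were chosen with earlier results of these data known. All members are named; of other lists up to 4, those past the threshold first and then by moderated t, with Mki67, Alb and Ogfrl1 always. Promoters were matched by symbol. Alternatives changed the normalization, pseudocount, filter, probe set rule, variance model, replicate block and arrays used. They are given in the closing section.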

Additional observations from a re-analysis of the deposited data

How the results depend on the processing

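Leaving out 1 array leaves a single array in its group, which limma then assumes to vary like the others. Calls depended on the processing. The count of genes called (61) was 4 after quantile normalization, 94 with 4 times the pseudocount, 0 without a brightness filter (2179 genes at an unadjusted p under 0.05), 2 with the stricter filter, 13 with the mean over probe sets, 0 without the intensity trend (1654 at an unadjusted p under 0.05), and 0 to 856 when an array was left out. Members called higher (3) numbered 0, 5, 0, 0, 0 and 0 in the same order, with 30, 32, 32, 22, 30 and 30 at an unadjusted p under 0.05, and 0 to 17 when an array was left out: 17 without EGFP array 1, 15 without EGFP array 2 and 0 without either OGFRL1 array. Member probe sets called (3) were 1 after quantile normalization, 6 after median scaling, 7 with 4 times the pseudocount, 0 without a filter, with the stricter filter or without the trend, and 0 to 24 when an array was left out. The labels share replicate numbers but state no pairing, and the block on them called 59 genes and 4 members (Hells, Prim1, Uhrf1 and Rfc4), so Brca1 was not called under it. The deviations of same-numbered arrays correlated at -0.28 across genes, and a block on the crossed pairing, chosen after seeing the data, called 934 genes and 22 members. Sizes were steadier: the member median (0.80) was 0.69 with the mean over probe sets and otherwise 0.70 to 0.87, and 38 to 40 of 41 members stayed above 0 in each setting that tested 41. With the stricter filter 23 of 25 members tested had separate groups. The polymerase median (0.83) was 0.53 with the mean over probe sets and 0.67 to 0.85 when an array was left out; the clamp median (0.68) was 0.83 with the mean over probe sets. The GINS median (0.47) was 0.39 after quantile normalization, 0.37 with 4 times the pseudocount, 0.52 with a floor, 0.85 with the stricter filter, 0.61 with the mean over probe sets and 0.42 to 0.64 when an array was left out. The repair median (0.99) was, in the same order, 0.91, 0.80, 1.09, 1.32, 0.81 and 0.92 to 1.10. Signs turned for Pola2 (0.01 after median scaling, -0.17 to 0.10 when an array was left out), Orc1 (-0.25 to 0.84) and Ogfrl1 (-0.15 to 0.04). The cause of these changes was not tested. Of 517 other values of the 41 members, 460 kept direction and side of the threshold, 23 lost the call, 30 gained it and 4 changed sign. Dim members such as Orc1 and Exo1 lie close to the pseudocount, where signal over background limits the fold change.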

Other observations

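Mcm10, the replication initiation factor that binds the MCM ring, was lower in OGFRL1 livers, unlike most other fork genes, and was picked out after its values were seen. Its brightest probe set read 259.6 and 585 in EGFP livers and 223 and 168.5 in OGFRL1 livers (-1.0 ± 0.36, adjusted p = 0.289 in the limma fit of probe sets), so both OGFRL1 arrays lay below both EGFP arrays, and EGFP array 2 was the highest of the 4. A dimmer probe set read 15.3 and 16.0 in EGFP livers and 8.78 and 10.9 in OGFRL1 livers (-0.53 ± 0.33). Mcm2, a subunit of the MCM ring, was likewise chosen after its values were seen, and its 2 probe sets differed. The first read 81.8 and 192 in EGFP livers and 172 and 156 in OGFRL1 livers (0.37 ± 0.36, adjusted p = 0.7), with EGFP array 2 again above both OGFRL1 arrays. The second read 67.9 and 98.5 in EGFP livers and 163 and 193 in OGFRL1 livers (1.09 ± 0.22, adjusted p = 0.102), with separate groups.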
